A study of Mus musculus with 18 samples.

Results

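The genes described here encode the proteasome, and were taken as every gene of the RNA-seq table whose symbol starts with Psm, followed by a letter from a to g and a number, with or without a last letter. This rule found 49 genes among the 35865 genes listed under a single name. Their RNA was measured by RNA-seq in splenic Tregs, purified as CD4+ T cells and then sorted for YFP, with 2 libraries from WT mice and 2 from Chd8-/- mice, each from a different mouse. The rule uses names only. Values are TPM, a unit that scales the reads of a gene by its length and by the library total. TPM carries no depth, and counting error cannot be computed from it. Of the 49 genes, 47 reached 1 TPM in at least 2 of the 4 libraries and entered the test, among 15240 genes tested in all.

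The Chd8-/- libraries are labelled CHD8Flox/FloxFoxp3YFP-Cre, in which Cre fused to YFP is expressed from the Foxp3 locus and removes floxed Chd8 in Foxp3+ cells. The WT libraries are labelled CHD8flox/floxFoxp3YFP-Cre/+, whereas the methods describe WT littermates, and the grouping of the sample titles was used. All 4 libraries carry the label Poly IC injection, an agent that the RNA-seq methods do not mention. Each genotype comprised 1 male and 1 female mouse, and which library is which was not given. The mice were 5 to 7 weeks old according to the methods. The methods also name a 10X Genomics assay next to the Illumina RNA-seq kit, and the files hold 1 bulk value per gene and mouse.

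The proteasome is the protease that degrades ubiquitinated proteins. Its barrel, the 20S core, is made of alpha rings that gate the entrance and beta rings that hold the catalytic sites, and the 19S particle that caps it binds ubiquitin, unfolds the substrate with a ring of ATPases and removes the ubiquitin chain. Lymphocytes and cells exposed to interferon replace the constitutive catalytic subunits Psmb5, Psmb6 and Psmb7 by Psmb8, Psmb9 and Psmb10, which gives the immunoproteasome, known for making peptides for MHC class I. The activator PA28, built from Psme1 and Psme2, opens the same core without ubiquitin.

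Chd8 itself was listed at 24.7 and 27.6 TPM in the WT libraries and at 14.9 and 11.4 TPM in the Chd8-/- libraries, and the genotypes did not overlap. The Treg markers Foxp3, Il2ra, Ctla4, Ikzf2, Tnfrsf18, Cd4 and Cd3e summed to between 3342.2 TPM in Chd8-/- replicate 2 and 4005.7 TPM in Chd8-/- replicate 1. Cd4 and Cd3e lay under WT in both Chd8-/- libraries, Ctla4 and Tnfrsf18 lay above, and the genotypes overlapped for Foxp3, Il2ra and Ikzf2. Chd8-/- replicate 2 stood apart in markers of other cells. The 6 myeloid markers summed to 1408.5 TPM in this library and to 25.7 TPM in Chd8-/- replicate 1, against 102.6 and 78.6 TPM in the WT libraries. Lyz2 alone was at 1360.3 TPM in Chd8-/- replicate 2. Itgam, Csf1r and S100a8 were also above both WT libraries in it, while Cd14 lay between them and Adgre1 under both. The 5 erythroid markers summed to 1629.6 TPM in Chd8-/- replicate 2 and to 8.7 TPM in Chd8-/- replicate 1, against 325.3 and 310.5 TPM in the WT libraries. Globin genes gave most of the sum in Chd8-/- replicate 2, and Alas2 lay under WT in both Chd8-/- libraries. The globin genes Hbb-bs and Hbb-bt were at 0 in Chd8-/- replicate 1, as were Cd14 and Adgre1 of the myeloid list, Pax5 of the B cell list and Gzma and Ncr1 of the CD8 T cell and NK cell list. The 5 B cell markers summed to 139.6 TPM in Chd8-/- replicate 2, mostly from Ms4a1 and Cd79a, with Cd79b under both WT libraries. In the other 3 libraries they ranged from 29.7 to 43.8 TPM, while the 5 markers of CD8 T cells and NK cells ranged from 11.3 to 51.1 TPM over all libraries. The part of these cells in the values below was not tested, and values without a Chd8-/- library are given beside the results that move with it. In bulk RNA, fewer cells of a type and less RNA per cell cannot be told apart.

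Proteasome genes were among the most highly expressed genes of these Tregs. By mean log2(TPM + 1), 30 of the 47 tested members lay in the top 10% of all genes tested, and the median member stood at percentile 93.9. The summed TPM of all 49 members was 7558.9 and 7651.0 in the WT libraries and 9758.5 and 8409.4 in the Chd8-/- libraries, or 0.756% and 0.765% against 0.976% and 0.841% of the library. Both Chd8-/- sums exceeded both WT sums. The distance between the Chd8-/- libraries was larger than that between the WT libraries, and Chd8-/- replicate 2, with the high myeloid and erythroid sums, had the lower proteasome sum of the pair.

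Most members had higher means in Chd8-/- Tregs, by a small amount, and no single member passed the test. The median difference of the 47 members was 0.20 on the log2(TPM + 1) scale, Chd8-/- minus WT, with 33 members higher and 14 lower. The median of all 15240 genes was -0.15, and relative to it 35 members were higher and 12 lower. Genes as abundant as these were nearer to 0, with a median of -0.02 over the 3101 genes with a mean of at least 50 TPM, against 0.20 for the 39 members among them. Proteasome genes with an adjusted p under 0.05 in limma numbered 0 of 47, as did genes overall (0% of those tested), and the lowest adjusted p of a member was 0.402. With no filter 415 genes passed and with a mean of at least 5 TPM 2 genes did, with 0 members among them. At an unadjusted p under 0.05, 10 members were higher and 0 were lower, where 3.90% of all genes tested were higher and 6.30% lower. Without the variance trend in the fit, 3 members reached it in either direction, where 10.1% of all genes did, so that the number of members did not exceed the background in that fit.

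**Figure D1:**
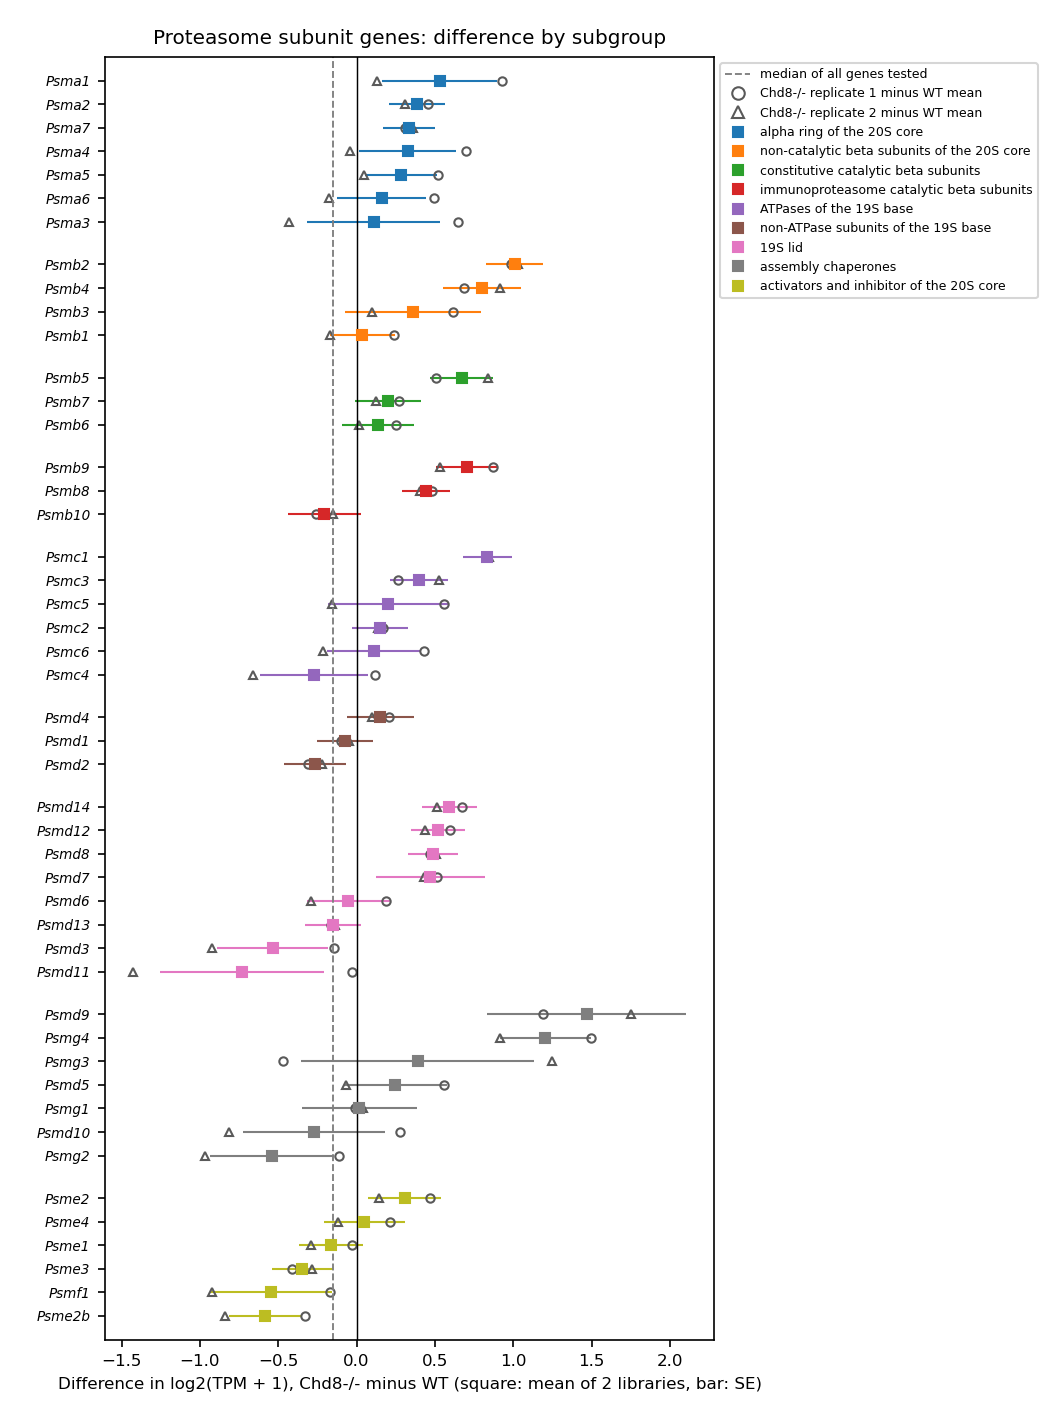
Difference in log2(TPM + 1) between 2 Chd8-/- and 2 WT libraries for the 47 tested proteasome genes, ordered by subgroup. Squares are the differences of the means and bars their SE from limma, open circles and triangles are Chd8-/- replicates 1 and 2 minus the WT mean, and the dashed line is the median of all genes tested (-0.15). The 20S core genes lie mostly to the right of 0, from -0.21 for Psmb10 to 1.01 for Psmb2, while 4 of 6 activator and inhibitor genes lie to the left.

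The Chd8-/- libraries were both higher than either WT library for 16 of 47 members, against 14.8% of all genes tested, and under both for 5 members, against 27.8%. Among genes with a mean of at least 50 TPM the shares were 22.0% above and 22.1% under, and the members gave 14 and 4 of 39. A difference of at least 0.7 was found for 6 members, where 9.20% of all genes reached it, and a difference of -0.7 or less for 1 member, where 19.2% of all genes did. Among genes with a mean of at least 50 TPM, 4 of 39 members reached 0.7 and 1 reached -0.7, where 6.93% and 8.58% of the genes did. The number of members past 0.7 upward was near its background.

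The Chd8-/- libraries did not contribute alike. Chd8-/- replicate 1 lay above both WT libraries for 33 of the 47 members and under both for 7, where 32.5% of all genes lay above and 38.7% under. Chd8-/- replicate 2 lay above both for 17 and under both for 16, where 28.0% of all genes lay above and 52.7% under. Replicate 1 exceeded replicate 2 for 32 members. The median difference of the members was 0.31 without Chd8-/- replicate 2 and 0.04 without Chd8-/- replicate 1, where the median of all genes was -0.04 and -0.25. The distance of the members from all genes was therefore of like size with either Chd8-/- library, while the value itself rested on replicate 1. These counts share the same WT libraries. The median SD between the Chd8-/- libraries was 0.23 for the members and 0.37 for all genes, and between the WT libraries 0.17 and 0.23.

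**Figure D2:**
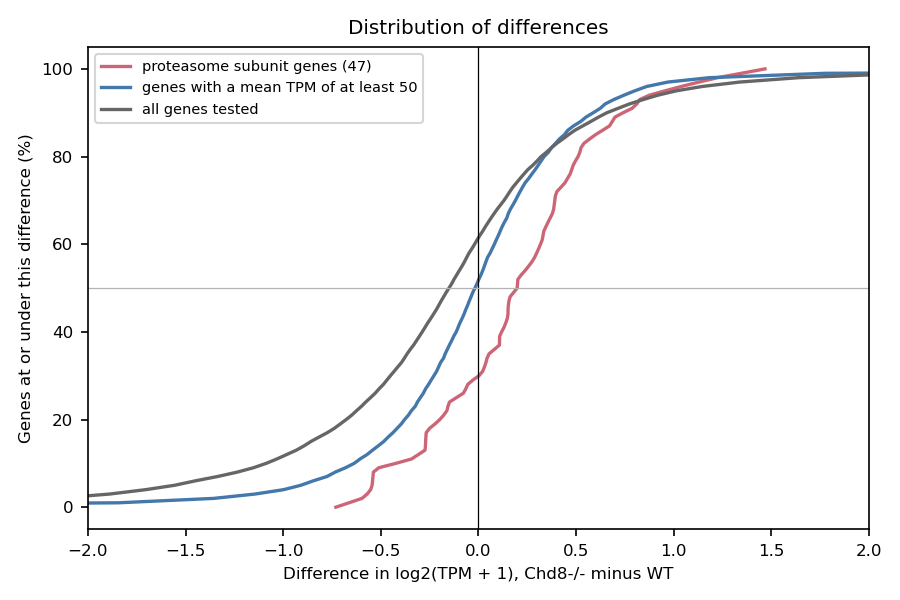
Cumulative share of genes (vertical axis, %) at or under each difference in log2(TPM + 1), Chd8-/- minus WT (horizontal axis), for the 47 tested proteasome genes, the 3101 genes with a mean of at least 50 TPM and all 15240 genes tested. The curve of the members crosses 50% at 0.20, that of abundant genes at -0.02 and that of all genes at -0.15, and values beyond -2 and 2 are not drawn.

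Sequences before the start sites were searched because proteasome genes are known to be controlled together, through antioxidant response elements bound by Nfe2l1 and Nfe2l2 and, for the immunoproteasome, through elements bound by interferon-activated factors. RefSeq promoter windows in GRCm38.p6, from 250 bases before to 50 bases after the start, were available for 41 of the 49 members, and not for Psma8, Psmb1, Psmb2, Psmb7, Psmc3, Psmd3, Psmd7 and Psmg2. Both strands were searched for TGACNNNGC (antioxidant response element core), GAAANNGAA (interferon response element core), TTCNNNGAA (gamma-activated site), the CCAAT box and the ETS site core CCGGAA, and matches of different motifs can share letters. The 180 bases directly upstream of 6 members are shown 5′ to 3′ on the strand of the gene, with matches in capitals. They include Psmb5 and Psmd9, which hold the antioxidant core close to the start, and the immunoproteasome genes Psmb8 and Psmb9. The others are Psmc1 and Psmd11, with a higher and a lower mean in Chd8-/- Tregs, which both hold the ETS core. The lower mean of Psmd11 came from Chd8-/- replicate 2.
Psmb5, chr14:54617996-54618175, minus strand: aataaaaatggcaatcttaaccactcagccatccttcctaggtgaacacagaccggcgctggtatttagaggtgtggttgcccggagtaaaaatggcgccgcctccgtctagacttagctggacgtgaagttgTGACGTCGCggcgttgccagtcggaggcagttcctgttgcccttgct
Psmd9, chr5:123228010-123228189, plus strand: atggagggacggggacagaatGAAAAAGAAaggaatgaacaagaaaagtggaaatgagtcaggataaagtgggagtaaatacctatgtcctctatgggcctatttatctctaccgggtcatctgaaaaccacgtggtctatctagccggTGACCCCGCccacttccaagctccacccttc
Psmb8, chr17:34198015-34198194, plus strand: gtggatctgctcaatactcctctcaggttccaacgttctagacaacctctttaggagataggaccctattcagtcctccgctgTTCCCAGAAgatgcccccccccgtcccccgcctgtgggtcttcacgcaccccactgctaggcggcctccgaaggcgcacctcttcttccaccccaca
Psmb9, chr17:34187331-34187510, minus strand: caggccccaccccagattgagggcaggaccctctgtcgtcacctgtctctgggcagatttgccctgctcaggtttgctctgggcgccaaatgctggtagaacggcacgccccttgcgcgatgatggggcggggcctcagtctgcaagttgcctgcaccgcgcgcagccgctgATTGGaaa
Psmc1, chr12:100110022-100110201, plus strand: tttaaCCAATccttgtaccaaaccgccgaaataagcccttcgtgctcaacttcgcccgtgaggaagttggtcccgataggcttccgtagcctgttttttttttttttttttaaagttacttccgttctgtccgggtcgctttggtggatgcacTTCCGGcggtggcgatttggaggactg
Psmd11, chr11:80428435-80428614, plus strand: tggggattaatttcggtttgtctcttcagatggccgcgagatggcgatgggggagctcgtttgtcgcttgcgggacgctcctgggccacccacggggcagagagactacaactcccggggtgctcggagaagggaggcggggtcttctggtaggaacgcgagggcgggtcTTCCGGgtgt

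In the 20S core nearly every tested gene had a higher mean in Chd8-/- Tregs. Of its 17 tested genes, 16 were higher and 1 was lower, and the Chd8-/- libraries were both above WT for 8 and both under WT for 0. Of all 15240 genes tested, 5875 were higher. Both Chd8-/- libraries lay above WT for 14.8% of them and under WT for 27.8%. Among genes with a mean of at least 50 TPM these shares were 22.0% and 22.1%. The summed TPM of the core was 3500.8 and 3657.1 in WT and 5166.0 and 4482.7 in Chd8-/- Tregs. Of the 17 subunits of the 19S particle, 10 were higher and 7 lower, with 6 above and 2 under in both libraries, and their sum was 2120.9 and 2324.9 in WT against 2804.7 and 2462.2 TPM. The difference between the 20S and 19S genes was not tested. The median was 0.34 for the core and 0.15 for the 19S particle. It was 0.13 and -0.05 without Chd8-/- replicate 1, with 12 and 8 of 17 genes higher, and 0.50 and 0.21 without Chd8-/- replicate 2, with 16 and 12 genes higher. The median of the 19S particle was 0.0074 without WT replicate 1 and 0.28 without WT replicate 2.

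All 7 tested alpha subunits, which form the gated outer rings, were higher by their means, from 0.11 for Psma3 to 0.53 for Psma1. Without Chd8-/- replicate 1, however, 4 of 7 were higher and the median fell from 0.33 to 0.05, and without Chd8-/- replicate 2 all 7 were higher with a median of 0.52. Psma1 was at 123.0 and 177.8 TPM in the WT libraries and at 282.9 and 161.7 TPM in the Chd8-/- libraries (difference 0.53, SE 0.36, unadjusted p = 0.214, adjusted p = 0.663 in limma). Its higher mean came from Chd8-/- replicate 1, and replicate 2 lay between the WT libraries. Psma3 was at 41.6 and 49.6 TPM in WT and at 71.6 and 33.5 TPM in Chd8-/- Tregs, so that the Chd8-/- libraries lay on either side of WT. The genotypes did not overlap for Psma2, Psma5 and Psma7, named here after their values were seen, with differences of 0.38, 0.28 and 0.34. Psma8, the alpha subunit of the testis proteasome, did not pass the filter, with 0 in each WT library and 0.8 and 0.5 TPM in the Chd8-/- libraries.

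Among the beta subunits without a catalytic site, Psmb2 and Psmb4 stood out. Psmb2 was at 144.1 and 121.6 TPM in WT and at 263.4 and 271.5 TPM in Chd8-/- Tregs. Its Chd8-/- libraries lay close together and well above both WT libraries. The difference was 1.01 (SE 0.18, unadjusted p = 0.00395, adjusted p = 0.402 in limma), the lowest p of all members. Psmb4 was at 236.8 and 345.2 TPM in WT and at 460.8 and 540.4 TPM in Chd8-/- Tregs, a difference of 0.80 (SE 0.25, unadjusted p = 0.0286, adjusted p = 0.456 in limma). Psmb1, by contrast, was level, at 291.6 and 289.1 TPM in WT and 343.5 and 258.3 TPM in Chd8-/- Tregs, with the WT values between the Chd8-/- values (difference 0.04, SE 0.21).

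The constitutive catalytic subunits did not move alike. Psmb5, which carries the chymotrypsin-like site, was at 153.1 and 141.7 TPM in WT and at 209.3 and 264.3 TPM in Chd8-/- Tregs. The genotypes did not overlap, and the difference was 0.67 (SE 0.20, unadjusted p = 0.0251, adjusted p = 0.452 in limma). Psmb6, with the caspase-like site, was at 134.4 and 178.6 TPM in WT and at 184.9 and 156.7 TPM in Chd8-/- Tregs (difference 0.13, SE 0.23). Psmb7, with the trypsin-like site, was at 86.6 and 107.1 TPM in WT and at 116.5 and 105.2 TPM in Chd8-/- Tregs (difference 0.20, SE 0.21). For Psmb6 and Psmb7 the genotypes overlapped and the SE exceeded the difference.

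The immunoproteasome subunits were also unlike one another. Psmb8, the counterpart of Psmb5, was the most abundant of the catalytic subunits, at 608.4 and 675.5 TPM in WT and 895.6 and 847.9 TPM in Chd8-/- Tregs, a difference of 0.44 (SE 0.15, unadjusted p = 0.0391, adjusted p = 0.472 in limma). Psmb9, the counterpart of Psmb6, was at 194.4 and 189.6 TPM in WT and at 351.4 and 278.7 TPM in Chd8-/- Tregs, a difference of 0.70 (SE 0.19, unadjusted p = 0.0188, adjusted p = 0.441 in limma). For these genes no Chd8-/- library overlapped with WT. Psmb10, the counterpart of Psmb7, was the least abundant, at 49.5 and 62.3 TPM in WT and at 46.2 and 49.9 TPM in Chd8-/- Tregs, and was the only tested core subunit with a lower mean (difference -0.21, SE 0.23, unadjusted p = 0.421). Its Chd8-/- libraries overlapped with WT. Psmb11, the beta subunit of thymic epithelial cells, was listed at 0.1 TPM in WT replicate 2 and at 0 in the other 3 libraries and was not tested.

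**Figure D3:**
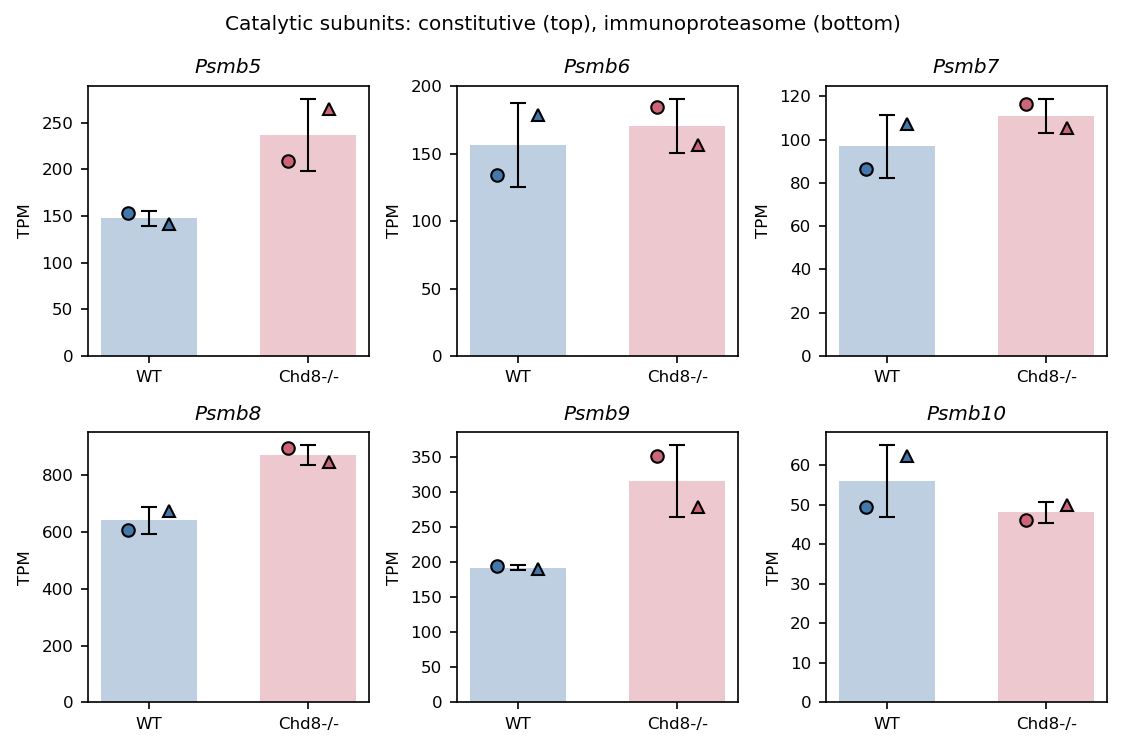
TPM of the constitutive catalytic subunits Psmb5, Psmb6 and Psmb7 (top) and of the immunoproteasome subunits Psmb8, Psmb9 and Psmb10 (bottom) in WT and Chd8-/- Tregs. Bars are means of 2 libraries with SD, circles are replicate 1 and triangles replicate 2, and each vertical axis starts at 0 with its own scale. The genotypes are apart for Psmb5, Psmb8 and Psmb9 and overlap for Psmb6, Psmb7 and Psmb10.

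Set against its constitutive counterpart in each library, the immunoproteasome showed no common direction. The ratio of Psmb8 to Psmb5 in TPM was 3.97 and 4.77 in WT and 4.28 and 3.21 in Chd8-/- Tregs, a difference of -0.23 in the log2 ratio (exact permutation test, two-sided, p = 0.667). The ratio of Psmb9 to Psmb6 was 1.45 and 1.06 in WT and 1.9 and 1.78 in Chd8-/- Tregs (log2 difference 0.57, exact permutation p = 0.333). For Psmb10 and Psmb7 it was 0.572 and 0.582 in WT and 0.397 and 0.474 in Chd8-/- Tregs (log2 difference -0.41, exact permutation p = 0.333). Thus Psmb9 was higher and Psmb10 lower relative to its counterpart in both Chd8-/- libraries, and 0.333 is the smallest p that 2 against 2 libraries allow. The mean of the 3 log2 ratios was 0.57 and 0.52 in WT and 0.57 and 0.48 in Chd8-/- Tregs (difference -0.02, exact permutation p = 0.667). Psmb8, Psmb9 and Psmb10 made up 69.5% and 68.5% of the TPM of the 6 catalytic subunits in WT and 71.7% and 69.1% in Chd8-/- Tregs.

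Within the base of the 19S particle, the ATPase Psmc1 differed most. It was at 164.9 and 163.7 TPM in WT and at 291.5 and 295.8 TPM in Chd8-/- Tregs, with both pairs of libraries nearly identical, a difference of 0.83 (SE 0.16, unadjusted p = 0.00481, adjusted p = 0.402 in limma). Of the 6 ATPases, 5 were higher, or 3 without Chd8-/- replicate 1 and 3 without WT replicate 1. Psmc4 was lower, at 109.3 and 85.5 TPM in WT and 105.1 and 60.7 TPM in Chd8-/- Tregs (difference -0.27, SE 0.34). The difference of Psmc4 was 0.12 without Chd8-/- replicate 2. Of the 3 non-ATPase subunits of the base, which bind ubiquitin and shuttle proteins, 1 was higher and 2 were lower by their means (median -0.07). Psmd4, a ubiquitin receptor, was at 68.6 and 85.0 TPM in WT and 88.4 and 81.7 TPM in Chd8-/- Tregs (difference 0.15), and Psmd2, the scaffold of the base, was at 80.3 and 73.2 TPM in WT and 61.6 and 65.6 TPM in Chd8-/- Tregs (difference -0.27, SE 0.20), with both Chd8-/- libraries under WT.

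The lid of the 19S particle showed differences in both directions, with 4 subunits higher and 4 lower. Psmd14, the deubiquitinase that removes the ubiquitin chain, was at 164.2 and 184.5 TPM in WT and at 277.6 and 249.1 TPM in Chd8-/- Tregs (difference 0.59, SE 0.18, unadjusted p = 0.0246, adjusted p = 0.451 in limma). Psmd12 was at 147.3 and 156.4 TPM against 230.1 and 205.8 TPM (difference 0.52, SE 0.17, unadjusted p = 0.0360, adjusted p = 0.470 in limma). Psmd8 was at 165.0 and 171.7 TPM against 232.9 and 240.0 TPM (difference 0.49, SE 0.16, unadjusted p = 0.0347, adjusted p = 0.467 in limma). For these lid subunits the libraries of a genotype lay close together and apart from the other genotype.

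Psmd11 had the lowest difference of all members, -0.73 (SE 0.52, unadjusted p = 0.231, adjusted p = 0.677 in limma). It was at 81.9 and 66.1 TPM in WT and at 72.0 and 26.7 TPM in Chd8-/- Tregs, so that replicate 1 lay within WT and the difference came from Chd8-/- replicate 2, the library with the high myeloid and erythroid sums. Without that library it was -0.03, and without Chd8-/- replicate 1 it was -1.43. Psmd3, another lid subunit named after its values were seen, followed the same pattern with -0.15 and -0.93.

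The assembly chaperones, which put the rings together and are not part of the finished particle, differed in both directions. Psmd9, a chaperone of the ATPase ring, was at 6.2 and 21.2 TPM in WT and at 27.8 and 41.5 TPM in Chd8-/- Tregs, the largest difference of all members at 1.47 (SE 0.64, unadjusted p = 0.0771, adjusted p = 0.536 in limma). The WT libraries themselves were far apart, and the difference was 0.66 without WT replicate 1, under that of Psmg4 and Psmb2, and 2.28 without WT replicate 2. Psmg4, a chaperone of the alpha ring, was at 24.7 and 26.3 TPM in WT and at 73.7 and 48.9 TPM in Chd8-/- Tregs (difference 1.20, SE 0.29, unadjusted p = 0.0123, adjusted p = 0.427 in limma), and both Chd8-/- libraries were far above the nearly equal WT libraries. Psmg2, which pairs with Psmg1 in alpha ring assembly, was at 57.4 and 84.3 TPM in WT and at 64.2 and 35.1 TPM in Chd8-/- Tregs (difference -0.54, SE 0.40), and -0.11 without Chd8-/- replicate 2.

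The activators and the inhibitor of the core were mostly lower by their means, and their difference from the other groups was not tested. Of 6 genes, 2 were higher and 4 lower. Both Chd8-/- libraries lay under WT for 3 and above WT for 0, where 27.8% and 14.8% of all genes tested did. The median was -0.25, or -0.10 without Chd8-/- replicate 2 and -0.29 without Chd8-/- replicate 1. Psme2 and Psme2b, a gene and its retrotransposed copy on another chromosome, had opposite signs. Psme2 was at 172.6 and 133.6 TPM in WT and 210.4 and 168.0 TPM in Chd8-/- Tregs (difference 0.31, SE 0.23), while Psme2b was at 436.5 and 420.1 TPM in WT and 341.4 and 238.3 TPM in Chd8-/- Tregs (difference -0.58, SE 0.23, unadjusted p = 0.0598, adjusted p = 0.506 in limma). Without Chd8-/- replicate 2 the difference of Psme2b was -0.33. Reads of near-identical copies can be assigned to either, so the split between the pair is uncertain. Their sum was 609.1 and 553.7 TPM in WT and 551.8 and 406.3 TPM in Chd8-/- Tregs, a difference of -0.29. Psme1, the partner of Psme2 in PA28 and the most abundant member in WT, was at 941.4 and 732.3 TPM in WT and 812.2 and 677.3 TPM in Chd8-/- Tregs (difference -0.16, SE 0.21) and is named after its values were seen, as is the inhibitor Psmf1 with a difference of -0.55 (SE 0.39), which was -0.17 without Chd8-/- replicate 2.

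**Figure D4:**
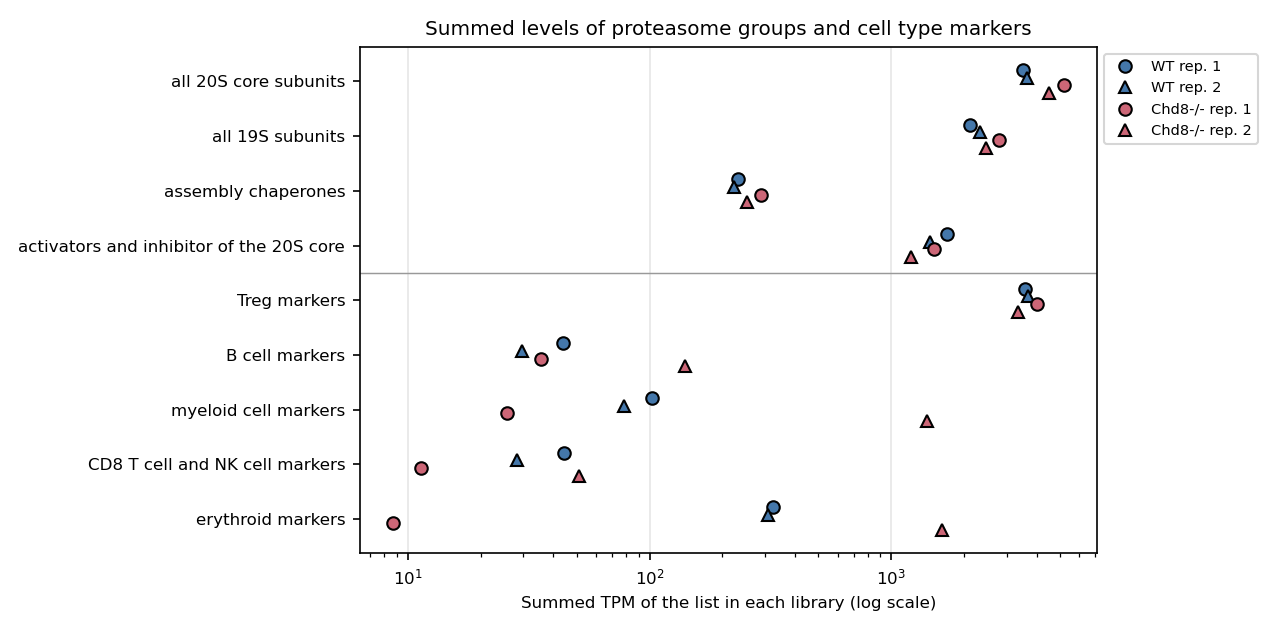
Summed TPM (log scale) in each of the 4 libraries for groups of proteasome genes (above the line) and for marker lists of Tregs and other cells (below it), with circles for replicate 1 and triangles for replicate 2. Both Chd8-/- libraries lie above WT for the 20S core and the 19S particle. Chd8-/- replicate 2 has the highest myeloid, erythroid and B cell sums.

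The 49 genes are spread over 16 chromosomes, with 9 on chromosome 11 and 6 each on chromosomes 2 and 14 (GRCm38). Psmb9 and Psmb8 flank Tap1, the peptide transporter subunit of the MHC class II region, on chromosome 17. Psmb9 lies on the minus strand at chr17:34182030-34187330, 225 bases from Tap1, and Psmb8 on the plus strand at chr17:34198195-34201454, with 969 bases to Tap1 and 3024 bases to Tap2. In this order, the differences were 0.70 for Psmb9, 0.29 for Tap1, 0.44 for Psmb8 and -0.56 for Tap2. That of Tap2 was -0.17 without Chd8-/- replicate 2 and -0.95 without Chd8-/- replicate 1. Psmb5 (chr14:54614120-54617995) and the nearly silent Psmb11 are neighbours at a distance of 7314 bases. The spans of 13 members overlap another annotated gene, and of 7 members a protein-coding one. Whether the counting used strand was not stated, so reads of such pairs may not be separable.

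The antioxidant core was found in 6 of the 41 members (14.6%), against 14.0% of all 27025 genes with a window and 16.1% of those with a mean of at least 50 TPM. Its first base from the start lay at -47 in Psmb5, -31 in Psmd9, -9 in Psmb6, -7 in Psme4, -227 in Psmc6 and -247 in Psmd12. The genotypes were apart, with higher Chd8-/- values, for Psmb5, Psmd9 and Psmd12 and overlapped for Psmb6, Psme4 and Psmc6. The interferon core was found in 7 members (17.1%, against 9.76% of all genes), but not in the windows of Psmb8, Psmb9 or Psmb10, and the gamma-activated site in 3 members (7.32%, against 9.55%), Psmb8 at -97 among them. CCAAT was found in 14 members (34.1%, against 41.1%). The ETS core was the motif with the highest share, in 20 members (48.8%), against 16.7% of all genes and 35.3% of abundant ones. It was found in members with differences in either direction, such as Psmc1 at -27 and Psmd11 at -10. The difference of Psmd11 was -0.03 without Chd8-/- replicate 2. Psmd2, with the core at -25, lay under WT in both Chd8-/- libraries. A match is a description of these letters and was not tested for binding.

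Genes that act with the proteasome but lie outside its naming rule were taken from fixed lists. Of the other proteasome factors, 8 were tested, 6 were higher and 2 lower, with 0 past the adjusted threshold, as for all genes tested (0%). Uchl5, a deubiquitinase of the 19S particle, had the highest difference, with 16.5 and 16.8 TPM in WT and 25.7 and 39.7 TPM in Chd8-/- Tregs (difference 0.90, SE 0.32, unadjusted p = 0.0435, adjusted p = 0.480 in limma). Pomp, the maturation factor of the 20S core, was at 339.9 and 320.1 TPM in WT and at 517.4 and 536.5 TPM in Chd8-/- Tregs (difference 0.67, SE 0.15, unadjusted p = 0.00910, adjusted p = 0.408 in limma), and is named after its values were seen. Ube3c, a ubiquitin ligase of the proteasome, had the lowest, -0.44. The 9 genes of transcriptional control lay between -0.48 for Nfyc and 0.24 for Nfya, with 3 higher and 6 lower. Of all 15240 genes tested, 5875 were higher. Without WT replicate 1 the list had 2 higher and 7 lower, and without WT replicate 2 it had 5 and 4. An unadjusted p under 0.05 in limma was found for 0 of the 9, where 10.2% of all genes tested had it.

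The lists that share a regulator or a product with the immunoproteasome did not follow one direction. Of 10 genes of MHC class I antigen processing, 8 were higher and 2 lower (median 0.15), or 5 and 5 without Chd8-/- replicate 1 (median 0.0019) and 9 and 1 without Chd8-/- replicate 2 (median 0.27). They ranged from -0.56 for Tap2, or -0.17 without Chd8-/- replicate 2, to 0.60 for the chaperone Calr. Both Chd8-/- libraries lay above WT for 5 and under WT for 1, where 14.8% and 27.8% of all genes tested did. Of 13 interferon response genes, 4 were higher and 9 lower (median -0.50, or -0.73 without Chd8-/- replicate 1, -0.21 without Chd8-/- replicate 2 and -0.29 without WT replicate 2). Both Chd8-/- libraries lay under WT for 6 of these genes and above WT for 3, beside the same shares of 27.8% and 14.8%. Gbp2, an interferon-gamma induced GTPase, was highest, with 125.3 and 120.8 TPM in WT and 266.9 and 314.7 TPM in Chd8-/- Tregs (difference 1.23, SE 0.18, unadjusted p = 0.00178, adjusted p = 0.373 in limma). Ifit1, induced by type I interferon, was lowest, with 58.5 and 100.9 TPM in WT and 46.8 and 11.1 TPM in Chd8-/- Tregs (difference -1.69, SE 0.75, adjusted p = 0.543 in limma), and its difference was -0.70 without Chd8-/- replicate 2. Thus the higher values of Psmb8 and Psmb9 stood beside interferon genes with differences of both signs.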

How the data were processed

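RNA-seq of sorted splenic YFP+ Tregs from 2 WT and 2 Chd8-/- mice was analysed. The authors trimmed the reads with Trim Galore 0.4.2 and cutadapt 1.9.1, aligned them to mm10 with STAR 2.6.1e, discarded duplicate reads (sambamba), ran featureCounts 1.6.2 over RefSeq genes and deposited TPM values rounded to 0.1. Duplicate removal without molecular identifiers can lower the values of abundant genes, to which most members belong. TPM gives no depth. The table lists 35869 names, and 4 entries under repeated names were left out.

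The scale was log2(TPM + 1), for genes with at least 1 TPM in 2 or more libraries, fitted in limma 3.58.1 under R 4.3.3 (eBayes with trend, two-sided, Benjamini-Hochberg over 15240 genes, threshold 0.05), with samples grouped by their titles. The p-values rest on the spread between 2 mice per genotype, which eBayes moderates toward a trend over all genes tested. The mice of a genotype were of different sex, so that this spread includes sex. The cutoff of 0.7 is the one the study used where it joined RNA with CHIP genes, and its cutoff for RNA alone was 1. Ratios of catalytic subunits were compared with an exact permutation test over libraries. The fit was tested on simulated data. Their spread between libraries was set under the median SD of the real data, and their changes were larger than most differences of the members. The simulation therefore does not show how the fit behaves at the spread and differences found here. Python 3.11.15, numpy 2.4.6, pandas 2.3.3 and matplotlib 3.10.9 were used for sequences and figures. Positions and sequences are from RefSeq in GRCm38.

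The members and all lists were chosen with earlier results of these data known. Named were Psmb5 to Psmb10, the members with the highest and lowest difference in each subgroup, members with an unadjusted p under 0.05, members that failed the filter, Chd8, and the highest and lowest gene of each other list. Some genes of these lists are not reported here. Alternatives were other pseudocounts (0.1 and 5 TPM), other filters (none, or a mean of 5 TPM or more), quantile normalization, equal library medians, a replicate block, eBayes without trend and each library left out, and, added after the data were seen, a mean TPM of at least 50. The ATAC and CHIP peak tables, aligned to mm39, were not used here, because they carry no gene names and the annotation used is of GRCm38.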

Additional observations from a re-analysis of the deposited data

How the results depend on the processing

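Proteasome genes past an adjusted p of 0.05 in limma numbered 0 under every setting run, with the lowest adjusted p of a member between 0.0755 with no filter and 0.971 without WT replicate 2. The replicate differences of the genotypes had a correlation of -0.01 over all genes. This showed no pairing of the mice by replicate number, but with 2 pairs it cannot exclude one. A replicate block left the median at 0.20. It gave 6 members with an unadjusted p under 0.05 in limma (8.77% of all genes) in place of 10 (10.2%). The fit without trend gave 3 (10.1%). With library medians set equal, 25 members lay above both WT libraries (23.8% of all genes) and 1 under both (20.2%), and the median was 0.38 against 0.03 for all genes. Members at -0.7 or less numbered 0 with 5 TPM added, under quantile normalization and with equal medians. Under quantile normalization 18 members lay above both WT libraries (21.0% of all genes) and 4 under both (21.3%). The median was then 0.18 against 0.0016 for all genes. Psmb1 was at -0.040 in that setting, and the mean log2 ratio of the 3 catalytic pairs at 0.0051. With each library left out, the median ranged from 0.04 to 0.31, members with an unadjusted p under 0.05 from 2 (3.67% of all genes) to 12 (20.9%), members above WT from 17 to 33, under WT from 7 to 16 and at -0.7 or less from 0 to 6. Of all genes, from 22.0% to 32.5% lay above WT with a library left out, and from 38.0% to 52.7% under WT. With no library left out these shares were 14.8% and 27.8%, so the background rose as well. No share of all genes is given here for -0.7 or less. The mean log2 ratio of the 3 pairs ranged from -0.065 to 0.020. Of the 47 members, 18 changed sign without at least 1 library, and 5 of these were named by the rule, Psmb6 (-0.069 to 0.34), Psma3 (-0.43 to 0.64), Psmb1 (-0.17 to 0.24), Psmd4 (-0.00026 to 0.30) and Psmc4 (-0.66 to 0.12). The cause of these shifts was not tested. The planned start site results from ATAC and CHIP peaks, with their alternatives, were not run, because the peaks are in another build than the annotation used, nor was protein identity, since no protein table was used here.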

Other observations

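Among the 8 tested genes for ubiquitin shuttles and Vcp, 5 were higher and 3 lower in Chd8-/- Tregs by their difference in log2(TPM + 1), or 3 and 5 without Chd8-/- replicate 1. Rad23b, a shuttle that brings ubiquitinated proteins to the proteasome, was highest, at 83.5 and 71.7 TPM in WT and 95.1 and 154.8 TPM in Chd8-/- Tregs (difference 0.64, SE 0.30, adjusted p = 0.558 in limma). Ubqln2, a shuttle of the ubiquilin family, was lowest, at 42.8 and 40.8 TPM in WT and 28.4 and 24.0 TPM in Chd8-/- Tregs (difference -0.66, SE 0.24, adjusted p = 0.481 in limma). Its relative Ubqln4, named after its values were seen, had a difference of -0.62, and in both genes the Chd8-/- libraries lay under the WT libraries, whereas Ubqln1, another ubiquilin, had a difference of -0.06 with overlapping genotypes.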
